A study of Mus musculus with 38 samples.

Results

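The GATA transcription factors are a family of 6 mouse genes, Gata1, Gata2, Gata3, Gata4, Gata5 and Gata6. The members were taken by symbol, all 6 of 6, from a bulk RNA-seq table of 35976 genes, a second bulk RNA-seq table of 37108 genes and a single-cell table of 20695 genes, and by position from lists of open chromatin and of SALL4 and H3K27ac peaks. Every GATA protein binds DNA through zinc fingers that read the letters GATA, and each member is switched on in only some lineages. GATA1 and GATA2 are known for blood and its vessels, GATA2 and GATA3 for trophoblast, and GATA4, GATA5 and GATA6 for endoderm and heart, with GATA6 and GATA4 among the regulators of primitive endoderm (PrE), the extra-embryonic layer that lines the yolk sac. BMP4, a secreted morphogen, and GATA genes are linked in several of these lineages.

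All cells came from mouse embryonic fibroblasts (MEFs) of E13.5 embryos with an Oct4-GFP allele, a mixed primary culture from trunk tissue. JGES cells received retroviral Jdp2, Glis1, Esrrb and Sall4 and were cultured in the chemically defined medium iCD3, whose additions are vitamin C, LIF, bFGF, the GSK3 inhibitor CHIR99021, the DOT1L inhibitor SGC0946, an LSD1 inhibitor, the ROCK inhibitor Y27632 and an agent labelled TV. They were profiled by bulk RNA-seq at day 0 and, without BMP4 or with 10 ng/ml BMP4, at days 1, 3, 5 and 7, and by single-cell RNA-seq at day 7 in both conditions. JGE cells lacked Sall4, JGEO cells had Oct4 in place of Sall4, and JGESO cells had both. Each of these sets was profiled at day 7 without and with BMP4. Other MEFs received SALL4-WT alone or SALL4-delN12 alone, a form without the 12 N-terminal residues through which SALL4 works with the NuRD repressor complex. These cells were kept in iCD3, with bulk RNA-seq and ATAC-seq (open chromatin) at days 1, 5, 9 and 11, ATAC-seq of MEFs, and CUT&Tag of SALL4 and of the active chromatin mark H3K27ac at day 6. Their RNA samples are recorded as without BMP4, while the ATAC-seq and CUT&Tag labels do not state it. The forced factors come from viruses in a whole culture, so each library mixes cells that did and did not respond.

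Each condition had 1 deposited library or, for CUT&Tag, 1 peak list from merged replicates. There is thus no replicate error, and no test between conditions was made. A bulk difference is the difference of log2(FPKM+1) between 2 libraries, where FPKM is a fragment count scaled to transcript length and library size. A gene was counted as past 2-fold when this difference was at least 1 in size and its FPKM reached 1 in either library. The share of all genes that passed the same limit is printed beside each count of GATA genes. No such share is given for GATA genes under another pseudocount or scaling or relative to the median of all genes. Read numbers behind the FPKM values are unknown, and the 25 columns of the bulk tables held 12030 to 14621 genes at an FPKM of 1 or more. A gene listed at 0 in 1 of the libraries is given no fold, although it can enter a count. In bulk RNA, fewer cells of a type and less RNA per cell cannot be told apart.

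Gata2 and Gata3 were the GATA genes that stood past 2-fold higher with BMP4 at every day of the JGES time course. Gata2, a regulator of blood progenitors, endothelium and trophoblast, had an FPKM of 9.97 at day 0. Without BMP4 its FPKM was 16.6, 8.26, 2.81 and 3.50 at days 1, 3, 5 and 7. With BMP4 the Gata2 values were 39.0, 35.1, 49.4 and 31.1, so every BMP4+ library stood above every library without BMP4. Gata3, a regulator of T cells and trophoblast, was at 2.2 FPKM at day 0 and at 0.925, 2.66, 2.87 and 2.39 FPKM without BMP4. Gata3 reached 5.08, 10.9, 15.9 and 11.8 FPKM with BMP4, again without overlap. The BMP4+ minus BMP4− difference of log2(FPKM+1) was 1.18, 1.96, 3.72 and 2.83 for Gata2 and 1.66, 1.70, 2.13 and 1.92 for Gata3 at the 4 days.

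At day 1, 2 of the 4 GATA genes that reached an FPKM of 1 were past 2-fold between BMP4+ and BMP4−, beside 9.48% of all genes, and these were Gata2 and Gata3. The same pair made up 2 of 3 at day 3, beside 15.8% of all genes. At day 5 it was 3 of 5, beside 22.0%, with Gata1 added on the lower side. At day 7 it was 3 of 5, beside 24.1%, with Gata5 added on the higher side. The median difference of all genes was -0.18 at day 5 and -0.14 at day 7. Gata4 at day 7 differed by 0.95, and by 1.08, past the limit, relative to that median. Against day 0 without BMP4 the median of all genes was 0.29 at day 5 and 0.26 at day 7. Relative to it Gata5 was at -1.07 at day 5, also past the limit.

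Gata4 and Gata6, both PrE regulators, did not follow this pattern. Gata4 was at 2.17 FPKM at day 0, at 0.963, 0.559, 3.23 and 10.3 FPKM without BMP4 and at 0.471, 0.481, 1.70 and 20.7 FPKM with BMP4. Its level was thus lower with BMP4 at days 1 and 5, by -0.42 and -0.65, and higher at day 7 alone. At day 3 the difference was -0.07, or 0.02 relative to the median of all genes, so no direction is read there. At days 1 and 3 Gata4 was below 1 FPKM in both libraries. Gata6 was at 5.99 FPKM at day 0, at 4.81, 9.71, 7.80 and 12.1 FPKM without BMP4 and at 4.02, 4.42, 4.22 and 7.00 FPKM with BMP4. The Gata6 level was lower with BMP4 at all 4 days, with differences of -0.21, -0.98, -0.75 and -0.71, none of them past 2-fold.

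Gata1, the regulator of red cells and megakaryocytes, was listed at 0 at day 0 and day 1 in both conditions. Without BMP4 its FPKM was 0.493, 2.69 and 0.724 at days 3, 5 and 7, while with BMP4 Gata1 was listed at 0 until day 5 and stood at 0.5 on day 7. Gata5, a regulator of heart and endoderm, was at 1.19 FPKM at day 0. Its FPKM was 0.577, 0, 0.280 and 0 without BMP4 and 1.35, 0.845, 0.414 and 1.04 with BMP4. The Gata1 peak at day 5 was a feature of the BMP4− culture, and Gata5, although higher with BMP4 at each day, did not exceed 1.35 FPKM.

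Both series start from the same day 0 library, so their differences from it are given side by side. Without BMP4, 0 of 5 GATA genes were past 2-fold at day 1, beside 21.1% of all genes. At day 3 it was 2 of 5 (Gata4, -1.03, and Gata5), beside 26.9%, and at day 5 it was 2 of 6 (Gata1 and Gata2, -1.52), beside 30.3%. At day 7 it was 3 of 5 (Gata2, -1.28, Gata4, 1.83, and Gata5), beside 32.5%. With BMP4 it was 2 of 5 at day 1 (Gata2, 1.87, Gata4, -1.11), beside 18.8%, and 3 of 5 at day 3 (Gata2, 1.72, Gata3, 1.89, Gata4, -1.10), beside 23.7%. The BMP4+ count was 2 of 5 at day 5 (Gata2, 2.2, Gata3, 2.4), beside 24.7%, and 3 of 5 at day 7 (Gata2, 1.55, Gata3, 2.00, Gata4, 2.77), beside 27%. Gata2 therefore ended below its day 0 level without BMP4 and above it with BMP4, while Gata4 was below its day 0 level on the first days and ended above it in both series.

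**Figure D1:**
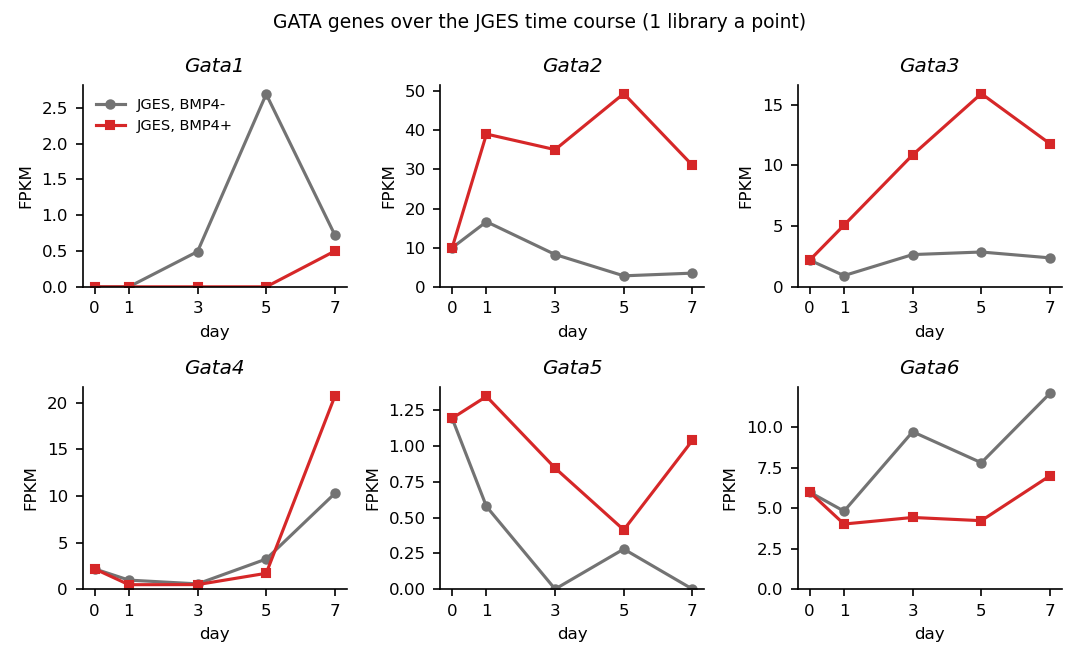
FPKM of the 6 GATA genes (vertical axes, each on its own scale) against the day of JGES reprogramming, 1 library a point, grey circles without BMP4 and red squares with BMP4, both series starting from the shared day 0 library. The Gata2 and Gata3 lines with BMP4 lie above those without at every day, while Gata4 is higher with BMP4 at day 7 alone (20.7 with and 10.3 without BMP4).

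The known partners and targets of the GATA factors gave a setting for these values, from lists chosen with earlier results known. Of 20 endoderm genes downstream of GATA4 and GATA6, all 20 were tested at day 7, 12 were higher with BMP4 past 2-fold and 0 lower, with a list median of 1.19 beside -0.14 for all genes. Ttr, which carries thyroid hormone and retinol, differed by 4.38, Dab2, an endocytic adaptor of PrE, by 2.77, the ligand gene Bmp2 by 2.24, and the endoderm regulator Sox17 by 1.73. Of 12 trophoblast genes linked to GATA2 and GATA3, 11 were tested and 4 were higher and 2 lower, median -0.06. Among them the keratins Krt8 (3.09) and Krt18 (1.60) were higher and the regulator Tfap2c was lower (-2.33). Of 16 blood genes linked to GATA1 and GATA2, 8 were tested, with 2 higher and 3 lower. The blood regulators Lmo2 (-1.75) and Kit (-1.55) were lower with BMP4, Runx1 was higher (1.23), and alpha-globin Hba-a1, at 16.4 FPKM without BMP4, was listed at 0 in the BMP4+ library. Of 18 GATA cofactors and partners, 15 were tested, 3 were higher (Mef2c by 2.07, Hand2 by 2.01, and Hand1) and 2 lower.

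Genes of other cell types also differed between these libraries. All 12 of 12 pluripotency genes were lower with BMP4 at day 7 (median -3.90), 5 of 8 fibroblast genes were higher and 0 lower (median 2.28), and 3 of 10 tested endothelial genes were higher and 1 lower (median 0.61). Their part in the GATA values was not tested.

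At day 7 Gata4 was higher in each library with Sall4 than in any library without it. Gata4 was at 0.441 and 0.359 FPKM in JGE without and with BMP4, 0.335 and 1.41 in JGEO, 10.0 and 20.3 in JGES, and 75.2 and 57.2 in JGESO. Within the pairs BMP4 went with a higher Gata4 level in JGES and JGEO and with a lower level in JGESO and, by -0.09, in JGE. Gata6 was at 7.48 and 3.11 FPKM in JGE, 3.0 and 4.04 in JGEO, 11.8 and 6.84 in JGES, and 43.7 and 15.6 in JGESO. The highest value of Gata4 and of Gata6 was in the same library, JGESO without BMP4.

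Gata2 was at 10.3 and 51.7 FPKM in JGE, 14.5 and 23.9 in JGEO, 3.41 and 30.4 in JGES, and 16.6 and 26.5 in JGESO, so it was higher with BMP4 in all 4 sets, also without Sall4. Gata3 was at 4.63 and 5.62 FPKM in JGE, 2.11 and 3.54 in JGEO, 2.33 and 11.5 in JGES, and 2.07 and 6.77 in JGESO, likewise higher with BMP4 in each set. Its differences were 0.23 in JGE and 0.55 in JGEO, against 1.34 in JGESO, and these 3 differences were not compared by a test. Gata1 was low throughout, at 0.457 to 0.706 FPKM in the 4 libraries with Sall4 and at most 0.0983 in the 4 without. Gata5 reached 3.43 FPKM in JGEO with BMP4, its highest bulk value.

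The BMP4+ minus BMP4− difference was past 2-fold for 2 of 3 GATA genes in JGE (Gata2, 2.22, and Gata6, -1.04), beside 9.06% of all genes. Relative to the median of all genes Gata6 was at -0.998, short of the limit. In JGEO the count was 0 of 5, beside 4.21%, and in JGESO 2 of 5 (Gata3, 1.34, Gata6, -1.43), beside 8.81%. Adding Sall4 to JGE without BMP4 gave 2 of 4 past 2-fold (Gata2, -1.35, Gata4, 2.93), beside 37.0%, and with BMP4 it gave 1 of 5 (Gata4, 3.97), beside 23.2%. Adding Sall4 to JGEO gave 2 of 5 without BMP4 (Gata4, 5.84, Gata6, 3.48), beside 28.2%, and 2 of 5 with BMP4 (Gata4, 4.59, Gata6, 1.72), beside 29.0%. JGESO against JGES gave 4 of 5 without BMP4 (Gata2, 1.99, Gata4, 2.79, Gata6, 1.80, and Gata5, listed at 0 in JGES), beside 49.5%, and 2 of 5 with BMP4 (Gata4, 1.45, Gata6, 1.08), beside 38.9%. With a median-ratio scaling, Gata3 and Gata6 were also past 2-fold in JGES against JGE with BMP4, which made 3, and 1 remained in JGESO against JGES with BMP4. The median of all genes was -0.26 without and -0.29 with BMP4 in JGESO against JGEO, and -0.09 and -0.12 after scaling. Relative to the unscaled median Gata3 was at 1.07, past the limit, in JGESO against JGEO with BMP4.

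In JGESO against JGEO without BMP4, 17 of 20 endoderm genes were higher past 2-fold and 1 was lower, with a list median of 3.05 beside -0.26 for all genes. Amn, part of the endocytic receptor of yolk-sac endoderm, differed by 6.39, Sox17 by 5.40 and the hedgehog ligand gene Ihh by 4.82, while Ttr was at 22.5 FPKM in JGESO and listed at 0 in JGEO. Genes of other cells differed in the same contrast, with 6 of 10 endothelial genes higher (median 1.76) and 4 of 8 macrophage genes lower (median -0.91). Their part was not tested.

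**Figure D2:**
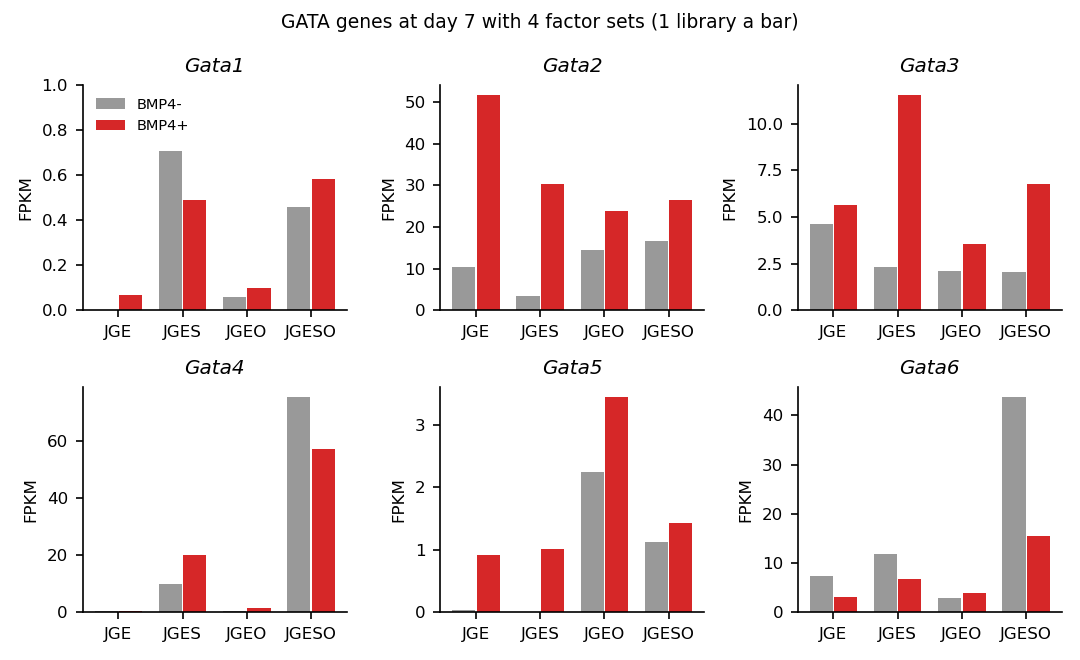
FPKM of the 6 GATA genes at day 7 (vertical axes from 0, each on its own scale) in the factor sets JGE, JGES, JGEO and JGESO, 1 library a bar, grey without BMP4 and red with BMP4. Gata4 is at 10.0 FPKM or more in the sets with Sall4 and at most 1.41 in the sets without it.

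With SALL4 as the single factor, Gata4 was the GATA gene that differed past 2-fold between the forms on the scale of log2(FPKM+1). Gata3 was lower with delN12 at each day by less than that. With 0.1 in place of 1 added to the FPKM, Gata3 at day 1 (-1.05), Gata4 at day 5 (1.14) and Gata5 at day 11 (1.53) were also past 2-fold. In SALL4-WT cells the Gata4 FPKM was 1.04, 0.811, 0.964 and 1.51 at days 1, 5, 9 and 11. In SALL4-delN12 cells Gata4 was at 0.502, 1.91, 9.48 and 29.3 FPKM, so the delN12 libraries of days 9 and 11 stood above all SALL4-WT libraries. The delN12 minus WT difference of Gata4 was -0.44, 0.68, 2.42 and 3.60 at the 4 days. Past 2-fold were 0 of 4 GATA genes on day 1, beside 9.81% of all genes, and 0 of 4 on day 5, beside 9.86%. On day 9 it was 1 of 4 (11.8% of all genes) and on day 11 it was 1 of 5 (13.1%), Gata4 each time.

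Gata6 in SALL4-WT cells was at 5.61, 4.26, 4.23 and 5.36 FPKM, and in SALL4-delN12 cells at 4.09, 2.52, 3.25 and 7.49 FPKM. It was thus lower with delN12 until day 9 and higher at day 11, each time by less than 2-fold. Gata2 was at 2.63, 11.2, 11.2 and 9.18 FPKM with SALL4-WT and at 2.46, 14.1, 19.2 and 14.1 FPKM with delN12, lowest at day 1 in both forms. Gata3 was at 1.87, 1.86, 1.44 and 1.49 FPKM with SALL4-WT and at 0.852, 1.12, 0.686 and 0.754 with delN12, so the ranges of both forms did not overlap, with differences of -0.63, -0.44, -0.53 and -0.51. Gata5 was listed at 0 at days 1 and 5 in both forms and reached 0.494 FPKM with SALL4-WT and 1.62 with delN12 at day 11. Gata1 did not exceed 0.0820 FPKM.

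From day 1 to day 11, 1 of 4 GATA genes was past 2-fold in SALL4-WT cells (Gata2, 1.49), beside 20.2% of all genes. In SALL4-delN12 cells it was 3 of 4 (Gata2, 2.12, Gata4, 4.34, and Gata5), beside 15.0%. No GATA gene other than Gata4 separated the forms by more than 0.81 at day 11.

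At day 11, 9 of 19 tested endoderm genes were higher with delN12 and 1 was lower (list median 0.69, beside 0.01 for all genes). Sox17 (3.81), the basement membrane gene Lama1 (3.55) and the hormone receptor gene Pth1r (3.27) were higher, and Bmp2 was lower (-3.24). Macrophage genes differed in the same contrast, 8 of 8 tested being higher with delN12 at day 9 (median 1.90) and 8 of 9 at day 11 (median 2.76). C1qa, a complement gene of macrophages, was at 3.88 FPKM with SALL4-WT and 116 FPKM with delN12 at day 11. Of the fibroblast genes, 4 of 8 were lower at day 11 (median -1.21) and 0 higher. The part of these cells in the GATA values was not tested.

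**Figure D3:**
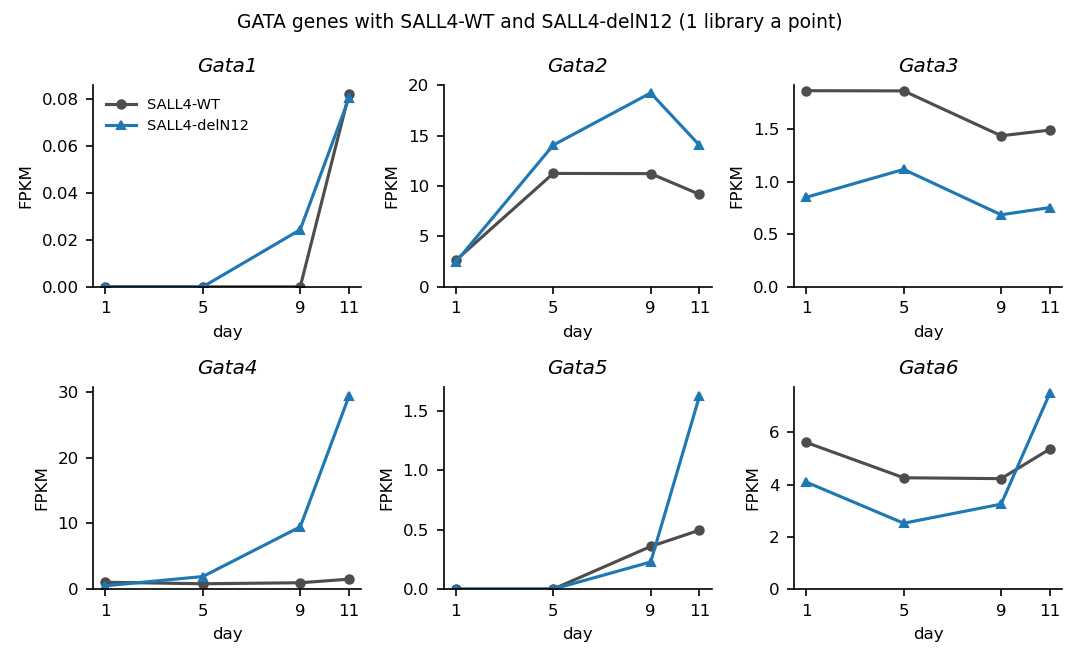
FPKM of the 6 GATA genes (vertical axes, each on its own scale) at days 1, 5, 9 and 11 in cells with SALL4-WT (dark circles) or SALL4-delN12 (blue triangles), 1 library a point. Gata4 reaches 29.3 with delN12 and 1.51 with SALL4-WT at day 11, and Gata3 is lower with delN12 at each day.

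Genes whose log2(FPKM+1) followed a member most closely over the 17 libraries of the larger table were ranked by Pearson r, among about 12350 genes that reached 5 FPKM somewhere. Libraries of 1 culture share a course, so r is a description, and the genes named depend on the measure. By Spearman rho the 3 nearest genes held 1 of these for Gata1, 2 for Gata2, 1 for Gata3, 0 for Gata4, 2 for Gata5 and 1 for Gata6. Gata1 was followed by Lefty2 (r = 0.94), Mep1b (0.93) and LOC108168100 (0.91), and Gata2 by the bone regulator gene Sp7 (0.88), Dok4 (0.87) and the protease gene Adam9 (0.86). Gata3 was followed by the netrin receptor gene Unc5c (0.96), Sorbs2 (0.95) and the sodium channel gene Scn4a (0.93). Gata4 was followed by Habp2 (0.95), the tight junction gene Cldn7 (0.95) and Nxf7 (0.95), Gata5 by Wbp5 (0.79), Igfbp7 (0.78) and Plac8 (0.78), and Gata6 by the glycogen kinase subunit gene Phka2 (0.88), Smoc1 (0.86) and Capsl (0.86). No member was among the 3 genes nearest to another member.

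Transcripts that overlap or run beside the members are listed under their own symbols, and the sources do not say whether counting used strand, so reads of antisense pairs cannot be told apart. Beside Gata3, 4930412O13Rik was at 5.04, 6.49 and 5.47 FPKM at days 3, 5 and 7 with BMP4 and at no more than 0.546 FPKM in the JGES libraries without BMP4. The other neighbour of Gata3, 9230102O04Rik, was at 1.94, 2.37 and 3.81 FPKM in the same BMP4+ libraries and at most 0.517 without BMP4. Beside Gata6, 1010001N08Rik was at 0.325, 1.38, 0 and 3.05 FPKM over days 1, 3, 5 and 7 in JGES without BMP4 and at 0, 0, 1.05 and 0.351 FPKM with BMP4, with no side higher throughout. Gata5os did not exceed 1.27 FPKM in any library. In the JGES course the transcripts beside Gata3 thus stood higher in the BMP4+ libraries of days 3 to 7, as Gata3 did.

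Single cells of day 7 JGES culture placed the members in cell types. There were 11335 cells with BMP4 and 8685 without, and the 2 samples shared 2 cell barcodes. The cell types are those the authors deposited, with the label ParE read as PrE-like cells (PrECLCs), which include 2372 cells with and 142 without BMP4. The other types with BMP4 are 1453 endothelial, 7125 intermediate and 385 placenta-like cells. Without BMP4 they are 507 endothelial, 6211 intermediate and 1825 pluripotent cells. Against the marker lists, 18 of 20 endoderm genes were highest in PrECLCs with BMP4 and 19 of 20 without, 11 of 12 and 10 of 12 endothelial genes in endothelial cells, and 12 of 12 pluripotency genes in pluripotent cells. The label placenta-like was met by 8 of 12 trophoblast genes. The endothelial cells were also highest for 15 of 16 blood genes with BMP4 and 14 of 16 without, and for 8 of 10 macrophage genes, so this label holds markers of blood.

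Levels by type are summed molecules (UMIs) scaled to the total UMIs of that type (counts per 1e6, CPM), with exact Poisson 95% intervals that cover counting error only. Since this assay is not scaled by gene length, CPM is compared between types within 1 gene. Gata1 was highest in endothelial cells, at 8.59 CPM (7.64 to 9.62) with BMP4 and 18.5 CPM (15.7 to 21.7) without. It was next in placenta-like cells, at 2.69 CPM (1.84 to 3.80), and was at 0.114 CPM or less in PrECLCs and intermediate cells with BMP4. Endothelial cells held 84.5% of all Gata1 UMIs with BMP4, although 13% of all UMIs were theirs, and 78.8% without BMP4. After each cell was thinned to 4000 UMIs, 3.10% of endothelial cells with BMP4 and 7.30% without had a Gata1 UMI (12.4% and 18.5% before thinning, at median depths of 21763 and 15083 UMIs). The share in intermediate cells, which should lack Gata1, was 0.0140% and 0.0805%, at median depths of 19594 and 11892 UMIs. Cells were also assigned by markers, when they held UMIs of at least 3 of the first 6 genes of a type's list. A cell could then fall in several types. So assigned, the endothelial Gata1 level was 5.47 CPM in the BMP4+ sample and 10.005 CPM in the other.

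Gata2 was highest in placenta-like cells, at 247 CPM (238 to 256). It was at 77.8 CPM (74.9 to 80.8) in endothelial cells, 49.0 CPM (47.9 to 50.05) in intermediate cells and 28.8 CPM (27.5 to 30.2) in PrECLCs with BMP4, and these 4 intervals did not overlap. Without BMP4 Gata2 was at 31.0 CPM (27.4 to 35.0) in endothelial cells, and at 2.65 (0.859 to 6.17), 1.94 (1.65 to 2.26) and 1.52 CPM (1.11 to 2.03) in PrECLCs, intermediate and pluripotent cells, whose intervals overlapped. A Gata2 UMI was found in 60.8% of placenta-like cells after thinning (89.9% before, at a median depth of 28906 UMIs), against 0.493% of pluripotent cells (1.81% before, at 15444 UMIs). The pluripotent cells are of the sample without BMP4, so their share does not measure background UMIs in the sample with BMP4. Placenta-like cells held 19.2% of Gata2 UMIs with 4.41% of all UMIs, and the intermediate cells, the most numerous, held 51.5%. With cells assigned by markers in place of the deposited labels, Gata2 was at 100.1 CPM in placenta-like and 57.2 CPM in endothelial cells with BMP4 and at 11.5 CPM in endothelial cells without.

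Gata3 was highest in intermediate cells with BMP4, at 40.2 CPM (39.2 to 41.2), then in placenta-like cells at 28.8 CPM (25.8 to 32.0), endothelial cells at 9.22 CPM (8.24 to 10.3) and PrECLCs at 7.32 CPM (6.66 to 8.03). Without BMP4 Gata3 was at 4.57 CPM (4.12 to 5.05) in intermediate cells and at 1.90 CPM or less in each other type. Intermediate cells held 85.3% of Gata3 UMIs with BMP4 and 59.8% of all UMIs. After thinning, 12.1% of them had a Gata3 UMI, against 0.767% of pluripotent cells, which are of the sample without BMP4. Gata2 and Gata3 therefore had their highest level per UMI in different types.

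Gata4 and Gata6 were highest in PrECLCs in both samples, and Gata5 was highest there with BMP4. PrECLCs held 93.6% of Gata4 UMIs with BMP4 but 65.7% of Gata6 UMIs, with 12.8% of Gata6 UMIs in endothelial and 20.3% in intermediate cells. In the sample without BMP4, where PrECLCs were few, they held 80.1% of Gata4 UMIs and 22.3% of Gata6 UMIs, and intermediate cells held 63.3% of Gata6 UMIs. Gata6 was at 25.5 CPM (23.8 to 27.2) in endothelial cells and 8.75 CPM (8.30 to 9.22) in intermediate cells with BMP4, while Gata4 was at 1.20 CPM (0.866 to 1.63) and 1.55 CPM (1.36 to 1.75) there. With cells assigned by markers Gata4 was at 11.2 CPM in endothelial, 5.32 CPM in intermediate and 28.6 CPM in placenta-like cells with BMP4, and Gata6 at 35.1, 12.8 and 36.2 CPM. These marker sets did not leave out PrECLCs, so they cannot show whether the low Gata4 level outside PrECLCs depends on the labels. Gata5 was at 2.49 CPM (2.11 to 2.92) in PrECLCs and at 1.19 CPM (1.03 to 1.37) in intermediate cells with BMP4, and 53.2% of its 361 UMIs came from the latter, which held 59.8% of all UMIs. Without BMP4 Gata5 rested on 23 UMIs in all, 3 of them in PrECLCs.

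**Figure D4:**
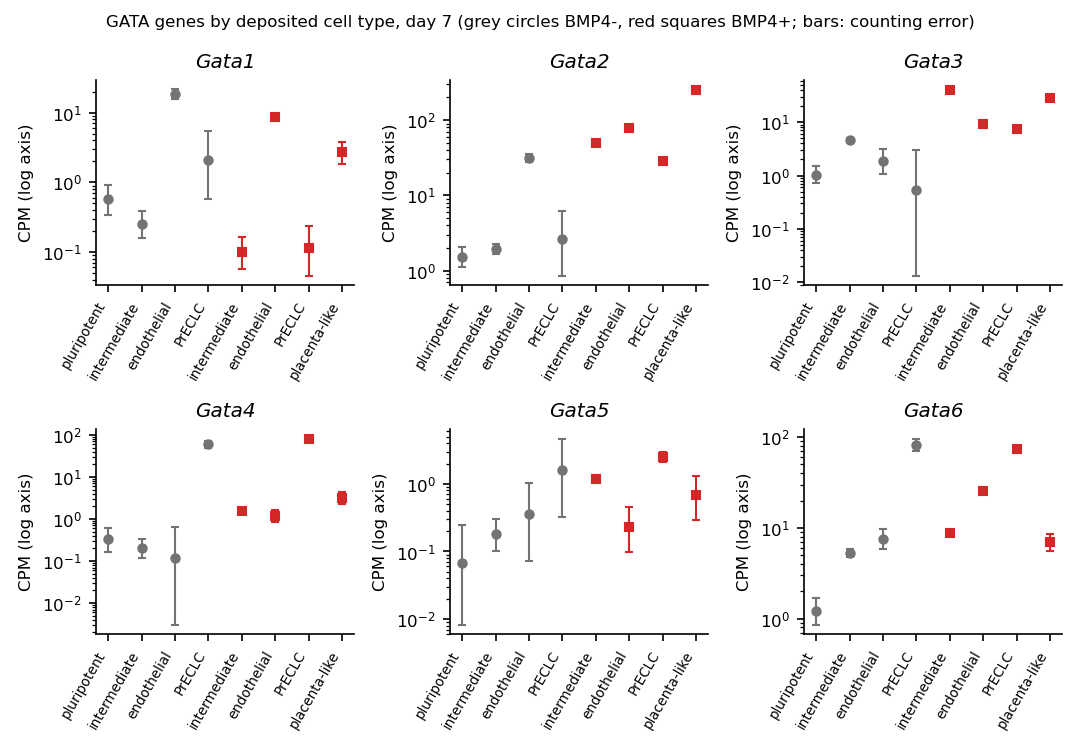
Level of each GATA gene by deposited cell type at day 7 (CPM, log axes of differing range), grey circles without and red squares with BMP4, with bars for the 95% Poisson interval of counting. Gata1 is highest in endothelial cells, Gata2 in placenta-like cells, Gata3 in intermediate cells with BMP4, and Gata4, Gata5 and Gata6 in PrECLCs.

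Within a type, the 2 samples could be set side by side, with folds of CPM and intervals for counting error. In intermediate cells Gata2 was 25.3-fold higher with BMP4 (21.6 to 29.7) and Gata3 8.80-fold (7.93 to 9.78), while Gata6 was 1.65-fold higher (1.49 to 1.85). In endothelial cells Gata1 was lower with BMP4, at 0.463 times its level without (0.381 to 0.566), and Gata2 was 2.51-fold (2.21 to 2.86), Gata3 4.85-fold (2.94 to 8.59) and Gata6 3.35-fold (2.60 to 4.39) higher. In PrECLCs Gata4 was 1.31-fold higher with BMP4 (1.09 to 1.59), Gata6 stood at 0.907 times (0.773 to 1.07), and Gata2 was 10.9-fold higher (4.66 to 33.6) over 5 UMIs without BMP4. Gata3 in PrECLCs was at 7.32 CPM with and 0.529 CPM without BMP4, the latter from 1 UMI, so it is given no fold. Gata2 and Gata3 were thus higher with BMP4 in each of these types, Gata3 in PrECLCs on that 1 UMI. With cells assigned by markers the PrECLC levels were 28.4 CPM without and 67.5 CPM with BMP4 for Gata4, 47.5 and 66.6 CPM for Gata6, and 11.3 and 37.4 CPM for Gata2, over 68 and 2343 cells. The small differences of Gata4 and Gata6 thus changed with the way cells were assigned. The Gata6 level of intermediate cells was then 4.87 and 12.8 CPM, and in endothelial cells Gata2 was at 11.5 and 57.2 CPM and Gata3 at 1.48 and 11.7 CPM.

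On the scale of log2(CPM+1), where a gene counted from 5 CPM in either sample, the median of all genes was itself 0.55 higher with BMP4 over all cells and between 0.48 and 0.52 higher within types. Over all cells 4 of 4 counted GATA genes were past 2-fold, beside 31.8% of all genes, with Gata2 at 3.04, Gata3 at 2.16, Gata4 at 2.68 and Gata6 at 1.47 relative to that median. In intermediate cells 2 of 3 were past 2-fold, beside 31.3%, with Gata2 at 3.60 and Gata3 at 2.4 relative to the median and Gata6 at 0.15. In endothelial cells 4 of 4 were past 2-fold, beside 26.3%. Relative to the median Gata1 was at -1.50, Gata3 at 1.34 and Gata6 at 1.14 there, with Gata2 at 0.82, short of the limit. In PrECLCs 2 of 4 were past 2-fold, beside 29.1% (Gata2 at 2.52 and Gata3 at 1.93 relative to the median, Gata4 at -0.13, Gata6 at -0.65). With the PrECLCs left out, 3 of 3 were past 2-fold, beside 31.8%. Relative to the median Gata2 was then at 3.26, Gata3 at 2.45 and Gata6 at 0.68, the last short of the limit. The difference of Gata6 over all cells was thus smaller without the PrECLCs, which are 20.9% of cells with BMP4 and 1.64% without.

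Members were also counted in the same cells after thinning. In PrECLCs with BMP4, 25% (21.6 to 28.5) of cells with a Gata4 UMI had a Gata6 UMI, against 23.9% (21.9 to 25.9) of cells without, while Sox17 was found in 65.1% (61.2 to 68.9) and 56.4% (54.0 to 58.7). In PrECLCs without BMP4 the order was the other way. Sox17 was found in 26.9% (11.6 to 47.8) of 26 cells with a Gata4 UMI and 42.2% (33.1 to 51.8) of cells without. For Gata6 the shares were 23.1% (8.97 to 43.6) and 26.7% (18.9 to 35.7). In intermediate cells with BMP4, 12.9% (10.9 to 15.2) of cells with a Gata2 UMI and 12% (11.2 to 12.8) of cells without had a Gata3 UMI. In endothelial cells a Gata2 UMI was found in 33.3% (20 to 49.0) of cells with and 23.5% (21.3 to 25.8) of cells without a Gata1 UMI with BMP4, and in 27% (13.8 to 44.1) and 11.9% (9.13 to 15.2) without BMP4. The Gata6 intervals overlapped in PrECLCs of both samples, as did the Sox17 intervals in those without BMP4. The Gata3 intervals in the intermediate cells also overlapped, and so did the Gata2 intervals in the endothelial cells of both samples. Outside PrECLCs Gata4 UMIs were rare, and in intermediate cells with BMP4 a Gata6 UMI was found in 16.7% (6.37 to 32.8) of the 36 cells with a Gata4 UMI and in 3.39% (2.98 to 3.83) of those without. These are exact binomial intervals within 1 culture.

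In the genome the 6 members lie apart. In GRCm38/mm10 with GENCODE vM21, Gata1 is at chrX:7959260-7978071 (minus strand), Gata2 at chr6:88193891-88207032 (plus), Gata3 at chr2:9857078-9890034 (minus), Gata4 at chr14:63198922-63271692 (minus), Gata5 at chr2:180325133-180334699 (minus) and Gata6 at chr18:11052064-11085635 (plus). Positions below are distances from these gene starts along transcription. The annotation holds further starts inside the genes, up to 16362 bp downstream in Gata3 and 58085 bp in Gata4. A locus is the gene with 20 kb to each side. ATAC peaks were called by the authors in each library, with 78517 to 125470 peaks a library, and 24 to 36 of them at the GATA loci.

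A promoter was counted as open when a peak lay within 2 kb of the gene start. In MEFs 4 of 6 GATA promoters were open, beside 66.2% of all 21938 protein-coding genes. With SALL4-WT the count over days 1, 5, 9 and 11 was 4 (60% of all genes), 4 (64.4%), 4 (63.7%) and 5 (64.0%). With SALL4-delN12 it was 3 (57.9%), 3 (59.8%), 4 (61.4%) and 4 (61.9%). Gata3, Gata4 and Gata6 had such a peak in all 9 libraries and Gata1 in none. The Gata2 promoter had a peak at -0.3 kb in SALL4-WT at days 5, 9 and 11 (scores 265, 150 and 235) and in delN12 at day 9 (97.8), and none in MEFs, while its internal start at +4.8 kb was open in 8 of 9 libraries.

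Merged over the libraries there were 3 ATAC sites at Gata1, 13 at Gata2, 10 at Gata3, 15 at Gata4, 8 at Gata5 and 9 at Gata6. The number of sites open in all 9 libraries was 1, 3, 4, 2, 0 and 1 for Gata1 to Gata6. The 1 such site of the Gata1 locus lies 51 bp from the start of its neighbour Hdac6, and the other two also lie downstream, so no ATAC peak fell in the Gata1 gene itself in any library. Gata4 had 11 of 15 sites open in MEFs, and Gata2 6 of 13.

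Peaks of 1 form that had no overlap (of at least 1 bp) with a peak of the other form were counted beside the same share of all peaks. For SALL4-WT the counts over days 1, 5, 9 and 11 were 19 of 35 locus peaks (37.4% of all peaks), 18 of 36 (40.2%), 8 of 32 (34.8%) and 5 of 25 (39.3%). For SALL4-delN12 it was 9 of 24 (47.5%), 7 of 27 (32.0%), 7 of 34 (33.0%) and 11 of 30 (27.5%). At Gata4 the counts were 4 of 8, 7 of 10, 3 of 10 and 1 of 7 for SALL4-WT and 3 of 8, 3 of 7, 1 of 11 and 6 of 11 for delN12, counts too small to read an order over the days from.

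The Gata2 sequences below come from the 3 sites with a peak in all 9 libraries, each read from GRCm38 on the plus strand over 200 bases around the top peak's centre or, for the first, around a composite that not every library's peak covered. Capitals mark a GATA word, which is the word AGATAA, the word TGATAA, the word AGATAG or the word TGATAG on either strand, a word on the minus strand being printed as its reverse complement. In the first stretch capitals also mark the CATCTG of a composite. The composite, CATCTG, then 8 bases, then AGATAA, is the kind of element that GATA2 binds with TAL1 in blood cells. It lies at chr6:88203185-88203204 in an intron.
Gata2 +9.4 kb, chr6:88203105-88203304: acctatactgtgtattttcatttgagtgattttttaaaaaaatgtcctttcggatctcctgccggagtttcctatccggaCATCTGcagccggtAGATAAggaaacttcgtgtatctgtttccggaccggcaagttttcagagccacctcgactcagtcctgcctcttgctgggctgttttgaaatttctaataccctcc
Gata2 -4.1 kb, chr6:88189688-88189887: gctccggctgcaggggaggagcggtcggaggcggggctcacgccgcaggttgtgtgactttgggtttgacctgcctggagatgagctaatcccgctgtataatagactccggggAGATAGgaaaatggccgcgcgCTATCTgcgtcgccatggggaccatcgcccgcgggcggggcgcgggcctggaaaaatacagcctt
Gata2 -19.1 kb, chr6:88174723-88174922: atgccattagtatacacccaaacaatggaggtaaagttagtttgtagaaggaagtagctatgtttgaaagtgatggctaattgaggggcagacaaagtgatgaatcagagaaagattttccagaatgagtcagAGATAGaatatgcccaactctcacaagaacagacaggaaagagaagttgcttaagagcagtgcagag

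The site at +9.4 kb scored 602 in MEFs and 64.3 to 200 in the 8 SALL4 libraries. A peak covered the composite itself in MEFs and in SALL4-delN12 at day 1, and in the other ATAC libraries the nearest peak was 14 to 257 bp away. Both SALL4 CUT&Tag lists (77.0 in SALL4-WT, 147 in delN12) and the H3K27ac list of delN12 (139) covered it, and the H3K27ac list of SALL4-WT did not. Among all ATAC peaks, 4 to 8 a library held this composite anywhere in the peak. The site at -4.1 kb scored 345 in MEFs, 133, 277, 264 and 257 with SALL4-WT and 169, 293, 491 and 511 with delN12 at days 1, 5, 9 and 11. The site at -19.1 kb scored 67.5 in MEFs and 199.5 to 636 in the SALL4 libraries, and had a SALL4 peak of both forms (273 and 348) and an H3K27ac peak with delN12 alone (140). Peak scores depend on depth, so they are given as the peak caller wrote them and are not compared across libraries as amounts.

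At Gata3 the site with the highest score lies at +10.5 kb, in an intron 893 bp from an internal start, and is shown since it held the top ATAC score of the locus in each library but one. The exception is SALL4-WT at day 1, where the site at -14.0 kb scored 340 and this one 255. It holds no GATA word in these 200 bases.
Gata3 +10.5 kb, chr2:9879393-9879592: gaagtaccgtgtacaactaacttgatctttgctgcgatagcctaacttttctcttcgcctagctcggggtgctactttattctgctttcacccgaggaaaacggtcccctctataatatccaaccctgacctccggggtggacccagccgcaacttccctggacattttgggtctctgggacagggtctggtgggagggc

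It scored 1728 in MEFs, 255, 791, 806 and 960 with SALL4-WT and 535, 422, 673 and 555 with delN12. All 4 CUT&Tag lists had a peak over it, with SALL4 scores of 178 (SALL4-WT) and 282 (delN12) and H3K27ac scores of 96.4 and 305. A site open in MEFs thus lay under a SALL4 peak of both forms.

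At Gata4 the site at -10.3 kb carries the highest SALL4 score of the locus and is shown for the difference between the forms. It holds 2 GATA words, both on the minus strand.
Gata4 -10.3 kb, chr14:63281899-63282098: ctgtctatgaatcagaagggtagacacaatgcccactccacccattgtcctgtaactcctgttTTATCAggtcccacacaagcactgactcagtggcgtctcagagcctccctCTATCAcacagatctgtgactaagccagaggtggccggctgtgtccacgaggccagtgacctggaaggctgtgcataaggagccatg

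This site had no MEF peak. It was open in SALL4-WT at days 1, 5 and 9 (89.8, 89.9 and 189) and in delN12 at day 9 alone (69.4), and at day 11 in neither. SALL4-WT had a SALL4 peak of score 373 over it, delN12 had no SALL4 peak there, and neither form had an H3K27ac peak. The Gata4 site at +15.8 kb, in an intron, was open in all 9 libraries (326 in MEFs, 90.9 to 589 with SALL4-WT, 77.8 to 218 with delN12) and had a SALL4 peak in SALL4-WT alone (89.2). The other Gata4 site open throughout, at +78.1 kb, lies 242 bp from the start of the neighbour Neil2. Both sites thus had a SALL4 peak in the SALL4-WT list and none in the delN12 list.

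SALL4 peaks were counted at day 6 from lists called after replicates were merged. The GATA loci held 21 SALL4 peaks with SALL4-WT and 12 with delN12. Of the 21, 12 had no delN12 peak, beside 48.9% of all SALL4-WT peaks, and these were 6 of 7 at Gata4, 2 of 4 at Gata2, 0 of 4 at Gata3, 2 of 2 at Gata5 and 2 of 3 at Gata6. Of the 12 delN12 peaks, 3 had no SALL4-WT peak, all at Gata6, beside 47.9%. H3K27ac had 5 peaks with SALL4-WT, 1 of them without a delN12 peak (11.2% of all), and 13 with delN12, 8 of them without a SALL4-WT peak (61.5%). The delN12 list was the longer one, with 45599 H3K27ac peaks against 19841, so the larger number at GATA loci goes with the larger number everywhere.

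A second Gata6 site, at -16.6 kb, was open in MEFs (430) and had a SALL4 peak (224) and an H3K27ac peak (183) with delN12 and none with SALL4-WT. The H3K27ac peaks with delN12 alone were 3 at Gata2, 3 at Gata3 and 2 at Gata6. At Gata4 neither form had an H3K27ac peak from the promoter to the end of the gene, and both had 1 at the start of Neil2. The second delN12 peak of the locus, at the start of Fdft1, overlapped a SALL4-WT peak that ends outside the locus. At Gata6 the promoter site at +0.7 kb was open in all 9 libraries and carried all 4 CUT&Tag peaks, with SALL4 scores of 307 (SALL4-WT) and 157 (delN12) and H3K27ac scores of 141 and 347. A SALL4 promoter peak was present at 2 of 6 GATA genes with SALL4-WT, Gata4 and Gata6 (51.5% of all genes), and at 1 with delN12, Gata6 (38.5%). An H3K27ac promoter peak was present at 1 with SALL4-WT, Gata6 (47.6%), and at 2 with delN12, Gata3 and Gata6 (56.8%). When the start of any transcript was allowed, Gata2 and Gata3 also had a SALL4 peak in both forms. H3K27ac then also had a peak at Gata3 with SALL4-WT and at Gata2 with delN12.

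**Figure D5:**
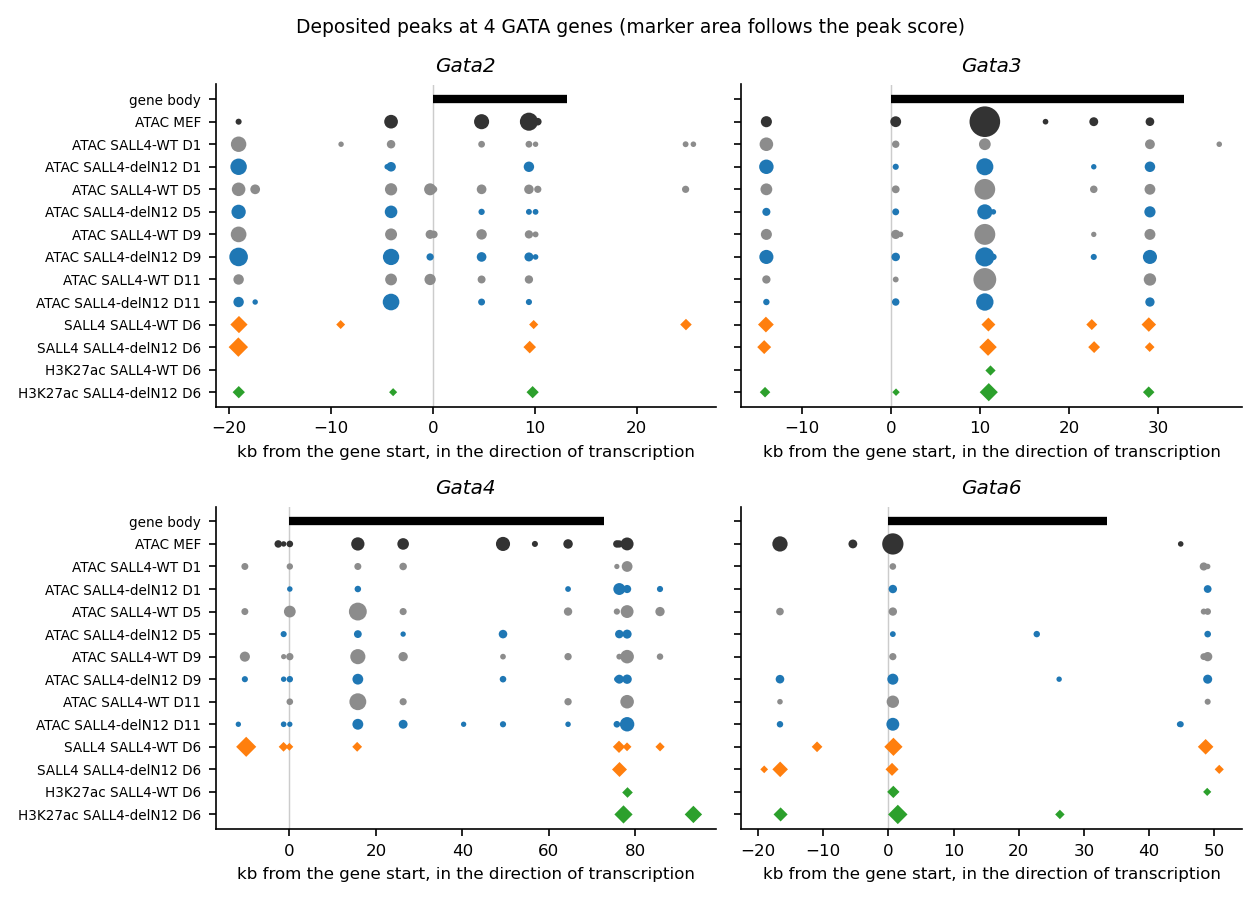
Peaks at Gata2, Gata3, Gata4 and Gata6 by distance from the gene start along transcription (kb), 1 row a library, with the gene body as a black bar and the marker area following the peak caller's score. Circles are ATAC peaks (dark MEF, grey SALL4-WT, blue SALL4-delN12) and diamonds are CUT&Tag peaks (orange SALL4, green H3K27ac). The Gata3 site at +10.5 kb fills every row, and the Gata4 site at -10.3 kb has a SALL4 peak in the SALL4-WT row alone.

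A GATA word stood in the central 200 bases of 13.9% to 36.7% of the ATAC peaks at the GATA loci, from 5 of 36 in SALL4-WT at day 5 to 11 of 30 in delN12 at day 11, against 18.5% to 22.7% of all ATAC peaks. With 24 to 36 locus peaks a library these shares are coarse. Of the members, 4 of 6 matched the table of RefSeq promoters (GRCm38.p6, 250 bases before to 50 after a start), with 5 promoters, and 1 of the 5, that of Gata3, held a GATA word, against 29.8% of all 32851 promoters of that length. A match describes the letters and not a bound site.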

How the data were processed

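Data were 23 bulk RNA-seq, 2 single-cell RNA-seq, 9 ATAC-seq and 4 CUT&Tag samples. Bulk values are FPKM deposited by the authors in tables of 17 and 8 libraries, and both tables hold the day 7 JGES libraries. Differences between factor sets were taken within the table of 8. Single-cell values are whole UMI counts deposited by the authors with cell types (other work's 10749 columns of that table were not used). Peak lists are those the authors deposited with a score per peak, without replicates for ATAC-seq and after merging replicates for CUT&Tag. The submitters' processing notes name mm10, Trim Galore 0.6.4, HISAT2 2.2.1, StringTie 2.2.1, Bowtie2 2.4.5, SAMtools 1.16.1, MACS 1.4.2, STAR and Scanpy.

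Differences of log2(FPKM+1), CPM from summed UMIs, shares of cells thinned to 4000 UMIs, peak overlaps and motif matches were computed with Python 3.11.15, numpy 2.4.6, pandas 2.3.3, scipy 1.17.1 and matplotlib 3.10.9. The functions for differences, thinning, Poisson intervals and peak overlaps were first tested on simulated or made-up data, and the others were not. A fold limit of 2 was used with a minimum of 1 FPKM or 5 CPM. No cell was lost on thinning, since the shallowest held 4163 UMIs. No doublet caller was used here, and leaving out the 6% of cells with most UMIs was tried instead. Where a count is 0, the limit is 3 counts of the total. Named genes are the 6 members, at most 4 genes of a list per comparison with the largest difference, the 3 genes most like each member, and transcripts overlapping or beside a member. Members and lists were chosen with earlier results of these data known. Alternatives were another pseudocount, other filters, median-ratio scaling, other summaries of cells, cells assigned by markers, and other peak windows and score limits.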

Additional observations from a re-analysis of the deposited data

Results flagged for a closer look

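Gata4 stood on opposite sides with BMP4 in different settings, which called for a closer look. Its BMP4+ minus BMP4− difference of log2(FPKM+1) was 0.95 in JGES at day 7 and 0.85 in JGEO at day 7, but -0.65 in JGES at day 5. Relative to the median of all genes these differences were 1.08, 0.815 and -0.47. The last is short of the size of 0.5 by which the differences were flagged. Each rests on 1 library a side, and the difference between these effects was not tested.

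Gata6 went opposite ways in the bulk and single-cell data of the same culture condition. In JGES at day 7 it was lower with BMP4 in bulk RNA, by -0.71 on the log2(FPKM+1) scale, and higher over all single cells, by 2.01 on the log2(CPM+1) scale. This difference was not tested. Over the 20 endoderm genes the median difference was 1.19 in bulk and 2.71 in single cells. For 19 of 20 the difference was larger in the single-cell data than in bulk. The median over all genes tested was itself -0.14 in bulk and 0.55 in single cells.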

How the results depend on the processing

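Replicates could not be paired or left out, since each group has 1 deposited library or, for CUT&Tag, 1 list from merged replicates. Pairing the BMP4 libraries by day or factor set, which takes the BMP4 difference to be the same in each, was not done. No difference past 2-fold changed sign under another pseudocount or scaling. With a pseudocount of 0.1 in place of 1, the number of GATA genes past 2-fold was 2 in place of 0 in JGES at day 1 against day 0 without BMP4, 1 in place of 0 for BMP4 in JGEO, 3 in place of 1 for JGES against JGE with BMP4, and for delN12 against SALL4-WT 1 in place of 0 at days 1 and 5 and 2 in place of 1 at day 11; in the 21 other comparisons it stayed within 1.5 times. With median-ratio scaling it was 3 in place of 1 for JGES against JGE with BMP4 and 1 in place of 2 for JGESO against JGES with BMP4, and stayed so in the 25 others. Relative to the median of all genes, a choice made after seeing the data, it was 1 in place of 2 for BMP4 in JGE. Without a filter on low values the share of all genes past 2-fold was 1.67% to 20.8% in place of 4.21% to 49.5%. As a mean over cells, CPM was 7.27 for Gata1 and 73.8 for Gata2 in endothelial cells, 38.6 for Gata3 in intermediate cells and 3.02 for Gata5 in PrECLCs, all with BMP4. With cells assigned by markers it was, with BMP4, 5.47 for Gata1 and 57.2 for Gata2 in endothelial cells, 100.1 for Gata2 in placenta-like cells, and 67.5 for Gata4 and 66.6 for Gata6 in PrECLCs, and, without BMP4, 10.005 for Gata1 and 11.5 for Gata2 in endothelial cells, 3.09 for Gata3 in intermediate cells, and 28.4 for Gata4 and 47.5 for Gata6 in PrECLCs. Pairs of a GATA gene and an ATAC library with a promoter peak were 17 in place of 35 at a score of at least 100, and with the start of any transcript pairs were 7 in place of 3 for SALL4 and 5 in place of 3 for H3K27ac. With 50 kb to each side, locus peaks were 439 in place of 278 for ATAC-seq, 61 in place of 33 for SALL4 and 30 in place of 18 for H3K27ac, and with the gene body alone 146, 12 and 8. At a score of at least 100, ATAC locus peaks were 142. The causes were not tested.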

Other observations

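The share of all peaks with a GATA word differed between the SALL4 forms at every day, a comparison described after the data were seen. In ATAC peaks it was 19%, 18.5%, 18.9% and 18.9% with SALL4-WT and 22.3%, 22.0%, 22.3% and 22.7% with delN12 at days 1, 5, 9 and 11, beside 22.1% in MEFs. Peaks that overlap no MEF peak held a GATA word in 23.2%, 21.9%, 22.9% and 22.5% with SALL4-WT and in 27.8%, 28.4%, 29.0% and 34.5% with delN12. The central 200 bases had a GC content of 53.8%, 53.9%, 53.6% and 53.5% with SALL4-WT and 50.7%, 51.9%, 52.0% and 53.4% with delN12. The GATA words read backwards were found in 16.0%, 15.4%, 16.0% and 16.1% of SALL4-WT peaks and in 19.9%, 18.4%, 18.3% and 17.3% of delN12 peaks. Read backwards, AGATAG and TGATAG still hold the letters GATA, so these shares are not a baseline free of them. At day 11 GC content was nearly level between the forms, and the share with a GATA word was 18.9% and 22.7%. In SALL4 CUT&Tag peaks the GATA word share was 25% with SALL4-WT and 30.4% with delN12, at a GC content of 51.0% and 46.0%. Each list comes from 1 condition, and the part of base composition in these shares was not tested.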
